A study of Mus musculus with 4 samples.

Results

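The transcripts described here encode the core proteins of cell surface and matrix proteoglycans and the enzymes that build, sulfate and trim their sugar chains, in otocysts of mouse embryos whose Tbx2 and Tbx3 genes, which encode T-box transcription factors, were targeted in the otic region. The genes were chosen by name: the glypicans (Gpc), syndecans (Sdc) and lecticans (Acan, Bcan, Ncan and Vcan) as cores, and the Chst, Ndst, Hs3st and Hs6st families with Papss1, Papss2, Hs2st1, Sulf1, Sulf2, Ext1, Ext2, Extl1, Extl3, Glce, Ust and Has2 as enzymes. This group was proposed with the mutant over control ratios of the same arrays in view, so those ratios are given as a description and support nothing by themselves. The names matched 54 of the 31693 genes or targets on the array, 14 cores and 40 enzymes, read by 68 probes.

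A proteoglycan is a core protein that carries long sulfated sugar chains, either heparan sulfate, as on glypicans and syndecans, or chondroitin sulfate, as on lecticans. Heparan sulfate is polymerised by exostosins, then N-sulfated, epimerised and sulfated at further positions, and the resulting pattern sets which growth factors, such as Fgf, Wnt, Bmp and hedgehog proteins, the chain holds. Every sulfotransferase uses the same donor, PAPS, made by the PAPS synthases. Outside the cell the Sulf enzymes remove 6-O-sulfate from heparan sulfate. Hyaluronan, which is made at the plasma membrane and carries no sulfate, is a major space-filling sugar around the growing inner ear.

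Otocysts, the epithelial vesicles that form the inner ear, were dissected from NMRI embryos at E10.5, and their total RNA was measured on 4 Agilent arrays with 2 dyes. Mutants (Tbx2/3cDKO) carried Pax2-cre with Tbx2(fl/fl) and Tbx3(fl/fl). The cre acts where Pax2 control sequence is active, in the otic region and in some other tissues. Controls were labelled Tbx2(fl/?);Tbx3(fl/?), with no cre named, so whether each control carried 1 or 2 floxed copies of a gene is not settled. Each array received 1 mutant and 1 control RNA, both female on replicates 1 and 2 and both male on replicates 3 and 4. Mutant RNA carried AlexaFluor647 on replicates 1 and 3 and AlexaFluor555 on replicates 2 and 4, and every ratio below is mutant over control by these dye labels. The labels do not tell single embryos from pools, so p-values cover the spread of these 4 pairs alone, part or all of which may be technical.

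Of the targeted genes, Tbx3 was lower at a mean log2 ratio of -3.43 ± 0.16 (SD, n = 4 arrays), and Tbx2 was at 0.06 ± 0.23 with a probe that need not lie in the deleted part. Per channel, 58.4% to 63.2% of spots exceeded background, and 4 arrays limit the precision. Across genes, which are not independent replicates, the ratios of replicate 4 correlated with those of the other arrays at r = 0.662 to 0.767, and those of replicates 1, 2 and 3 with each other at up to 0.857. Replicate 4 also carried some Xist signal in its mutant RNA, labelled male, with log2 levels of 7.56 and 7.74 against 9.36 to 9.68 in RNAs labelled female. Replicate 2, labelled female, carried a low signal of the Y-linked Eif2s3y, 6.82 (mutant) and 7.02 (control), against 10.4 to 11.0 in RNAs labelled male.

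Lists of cell type markers moved with genotype on these arrays. Of 14 otic epithelium markers 10 were lower and 1 higher in the mutant, with a median log2 ratio of -0.51. The log2 of their summed linear levels was 16.9 to 17.1 in mutant and 17.8 to 17.9 in control RNAs. In this sum, computed likewise for the lists below, the brightest markers weigh most. All 12 erythroid markers were higher, with a median of 1.12 and a summed level of 20.0 to 20.2 against 18.5 to 19.1. All 13 endothelial markers tested were higher, with a median of 0.66 and 15.1 to 15.2 against 14.5 to 14.7, while Erg was not well above background. Neuron markers had 10 of 13 higher, a median of 1.05 and 14.6 to 14.9 against 13.9 to 14.1. Periotic mesenchyme markers had 12 of 17 tested higher, a median of 0.38 and 17.3 to 17.4 against 16.8 to 17.0, with Tcf21 not well above background. Macrophage markers had 8 of 12 tested higher, a median of 0.37 and 12.7 to 13.1 against 12.4 to 12.6, with Fcgr1 not well above background. In both genotypes all 14 otic markers exceeded background on 3 or more arrays, as did most markers of the other lists. In bulk RNA, fewer cells of a type and less RNA per cell cannot be told apart, and the part of these marker shifts in the ratios below was not tested.

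A gene was tested when either genotype gave a signal well above background on 3 or more of the 4 arrays, and 43 of the 54 passed, 11 cores and 32 enzymes. The cores Gpc5, Acan and Bcan and the enzymes Chst4, Chst13, Ndst4, Hs3st2, Hs3st3b1, Hs3st4, Hs3st5 and Hs6st3 did not. Ndst3 passed only through the mutant RNAs and Extl1 only through the controls. The filter thus favoured the direction of their ratios, and nothing is read from that direction. Where a gene had several probes above background, the brightest was used.

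In a limma fit over all 18416 genes tested, with a Benjamini-Hochberg adjusted p under 0.05 as the threshold, 10 of the 43 were higher in the mutant (13.5% of all genes were) and 7 lower (10.1% of all genes). Among the cores 2 of 11 were higher and 1 lower, and without replicate 1, 2 or 3 the lower gene, Gpc4, was the 1 core left. Among the enzymes 8 of 32 were higher and 6 lower. The log2 ratio had 1 sign on all 4 arrays for 23 of the 43, against 41.5% of all genes. Past the threshold, with 1 sign throughout and at least 1.5-fold, were 3 higher, Papss2, Ndst3 and Hs3st1 (3.34% of all genes met this upward), and 5 lower, Chst9, Sulf1, Chst5, Hs3st3a1 and Gpc4 (1.92% downward). Since the group was proposed from this comparison, nothing is read from these counts. The median log2 ratio was 0.05 for cores and 0.05 for enzymes, against 0.00354 for all genes, and the median size of the ratio regardless of sign was 0.137 for the 43 against 0.0939 for all genes. Closest to the 1.5-fold limit were Gpc4 and Hs3st3a1 inside it, 1.51-fold and 1.54-fold lower, and Hs6st2 and Has2 outside it, 1.34-fold and 1.31-fold higher.

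**Figure D1:**
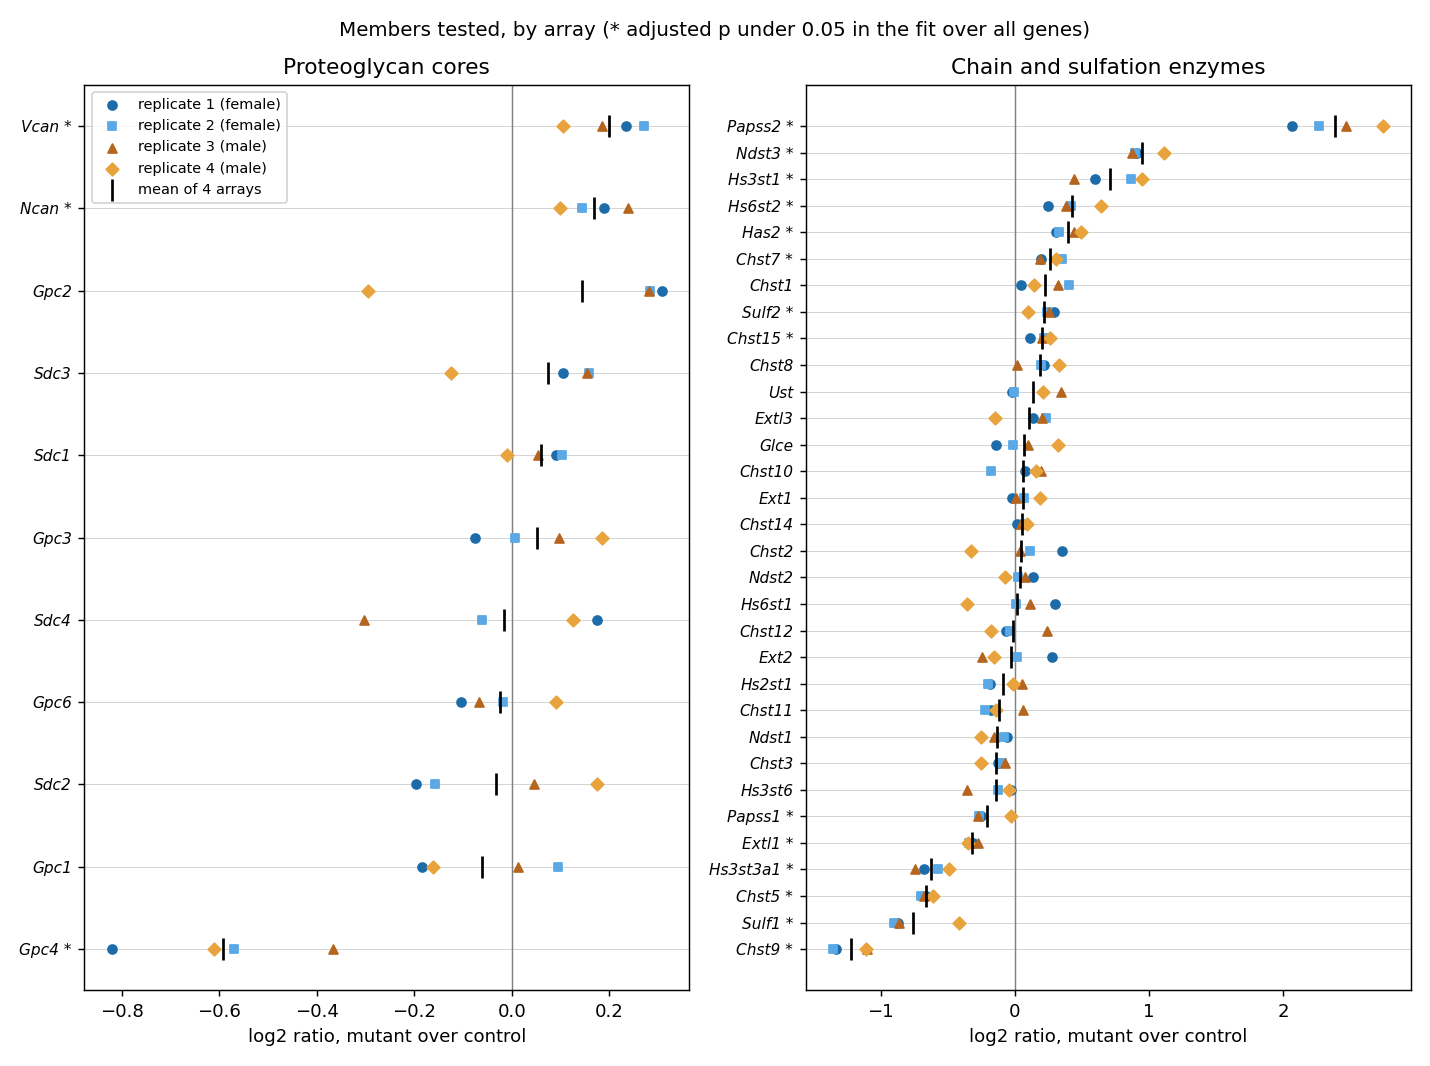
Log2 ratio of mutant over control (horizontal axis) for the 11 cores (left) and 32 enzymes (right) that were tested; each marker is 1 array, each black tick the mean of 4 arrays, and a star marks genes past the threshold. Papss2 lies alone on the right at 2.07 to 2.75, Chst9 on the left at -1.35 to -1.10, and most of the others lie near 0.

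The sulfate donor comes from Papss1 and Papss2, each a bifunctional enzyme that joins sulfate to ATP and then phosphorylates the product to PAPS. Papss2 is the form known for its need in growing cartilage. Papss2 (probe at chr19:32741618-32741677, mm9, the build of all probe positions here) had log2 ratios of 2.07, 2.27, 2.47 and 2.75 on replicates 1 to 4, a mean of 2.39 ± 0.29 (SD, n = 4 arrays) and 5.23-fold higher in the mutant. Its log2 levels were 9.57, 9.56, 9.88 and 10.12 in mutant RNAs and 7.51, 7.29, 7.41 and 7.38 in controls. The lowest mutant level lay above the highest control level, the control RNAs lay close together, and every RNA was well above background. The control levels were low, however, and the size of the ratio depended on the processing. The mean log2 ratio was 2.66 with a smaller offset in the background correction and 3.11 with the scanner software's own ratios.

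Papss1 (chr3:131306415-131306474) had log2 ratios of -0.25, -0.27, -0.28 and -0.03, a mean of -0.21 ± 0.12 (SD, n = 4 arrays), and was 1.15-fold lower in the mutant. Its levels were 12.92 to 13.08 in mutant and 13.11 to 13.25 in control RNAs. The ranges did not overlap, but replicate 4 stood apart near 0, and the call was lost in 8 of 12 processing alternatives, among them without replicate 1, 2 or 3 (-0.21, -0.15 and -0.20). The paralogues thus had ratios of opposite sign on every array, of unequal size.

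Upstream sequence is shown for this pair because the enzymes catalyse the same reaction and had opposite ratios in a mutant of T-box transcription factors. RefSeq gives each gene a pair of start sites, and the 250 bases before each are printed below, on the + strand of GRCm38.p6, with CpG dinucleotides in capitals.
Papss2, first start site, chr19:32595465-32595714: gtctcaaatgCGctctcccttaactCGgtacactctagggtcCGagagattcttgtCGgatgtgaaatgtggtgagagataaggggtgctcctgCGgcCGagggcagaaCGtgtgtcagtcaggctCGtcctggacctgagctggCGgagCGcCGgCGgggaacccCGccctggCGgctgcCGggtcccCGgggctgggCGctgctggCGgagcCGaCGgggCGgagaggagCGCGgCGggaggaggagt
Papss2, second start site, chr19:32619755-32620004: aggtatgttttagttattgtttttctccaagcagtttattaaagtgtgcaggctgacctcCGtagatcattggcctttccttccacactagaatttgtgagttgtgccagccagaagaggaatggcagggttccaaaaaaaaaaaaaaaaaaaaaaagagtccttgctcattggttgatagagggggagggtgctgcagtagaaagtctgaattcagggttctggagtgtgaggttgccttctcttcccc
Papss1, first start site, chr3:131564518-131564767: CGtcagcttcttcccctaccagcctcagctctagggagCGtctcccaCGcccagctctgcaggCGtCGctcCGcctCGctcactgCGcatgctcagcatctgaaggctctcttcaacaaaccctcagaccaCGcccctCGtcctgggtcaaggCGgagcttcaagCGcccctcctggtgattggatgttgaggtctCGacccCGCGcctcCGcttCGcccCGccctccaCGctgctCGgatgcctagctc
Papss1, second start site, chr3:131565782-131566031: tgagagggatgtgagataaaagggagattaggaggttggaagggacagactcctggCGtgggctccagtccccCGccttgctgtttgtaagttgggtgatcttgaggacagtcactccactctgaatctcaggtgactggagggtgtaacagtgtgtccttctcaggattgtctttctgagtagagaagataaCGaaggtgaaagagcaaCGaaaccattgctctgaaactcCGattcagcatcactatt

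In both genes the first window was rich in CpG, with 24 in Papss2 (GC content 67.6%) and 20 in Papss1 (65.2%). The second window held 1 CpG in Papss2 (GC content 43.2%) and 5 in Papss1 (48.8%). The probes do not tell which start site was used. A T-box core motif, AGGTGTGA or its reverse complement TCACACCT, was searched in RefSeq windows from 250 bases before to 50 after each start. It occurred in 0 of 49 windows of the 43 group genes with an entry and in 419 of 32851 windows of all genes (1.28%). A match is only a match of letters, and its absence says only that these letters are not in these windows. Genes with no window were Chst9, Ext1, Extl3, Gpc1, Gpc6, Has2, Hs3st6, Ndst1, Ndst4, Sdc2 and Sulf1.

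Heparan chains are polymerised by the Ext1 and Ext2 proteins acting as a complex, whose transcripts did not pass the threshold. Ext1 (chr15:52904855-52904914) had log2 ratios of -0.02, 0.07, 0.01 and 0.19, a mean of 0.06 ± 0.09 (SD, n = 4 arrays). Its levels overlapped, at 12.36 to 12.68 in mutant and 12.38 to 12.50 in control RNAs. Ext2 (chr2:93653725-93653784) had 0.28, 0.01, -0.24 and -0.16, a mean of -0.03 ± 0.23. The female pairs were at or above 0 and the male pairs below, and without replicate 3 or replicate 4 the mean turned to 0.10 or 0.02. Extl3, an exostosin-like transferase needed for heparan chain initiation, had 0.11 ± 0.17, and Extl1, a related transferase, -0.32 ± 0.04 with the mutant RNA above background on 2 of 4 arrays.

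N-deacetylase/N-sulfotransferases start the modification of the heparan chain. Ndst3 (chr3:123229234-123229293), a form best known from brain, had log2 ratios of 0.91, 0.90, 0.87 and 1.11, a mean of 0.95 ± 0.11 (SD, n = 4 arrays) and 1.93-fold higher. Its levels were 7.74 to 8.06 in mutant RNAs, all 4 above background, and 6.83 to 7.07 in controls, of which 1 of 4 was. The control level is therefore mostly unmeasured and the size of the ratio uncertain, and the log2 ratio was 1.94 with the scanner software's values. Neuron markers, with a median of 1.05, were higher on the same arrays, and their part in the Ndst3 ratio was not tested. The widely expressed Ndst1 had -0.14 ± 0.09 and its other probes -0.12 and -0.01, and Ndst2 had 0.04 ± 0.09. Glce, the epimerase that turns glucuronic into iduronic acid, had 0.07 ± 0.20, from -0.14 on replicate 1 to 0.33 on replicate 4.

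The O-sulfotransferases act next. Hs2st1 (chr3:144094574-144094633), the single 2-O-sulfotransferase of heparan sulfate, had log2 ratios of -0.18, -0.20, 0.05 and -0.02, a mean of -0.09 ± 0.12 (SD, n = 4 arrays), with overlapping levels of 9.87 to 10.23 in mutant and 10.07 to 10.25 in control RNAs. Among the 6-O-sulfotransferases Hs6st2, on chromosome X, was higher at 0.42 ± 0.16 and 1.34-fold, from 0.25 on replicate 1 to 0.64 on replicate 4. Hs6st1 had 0.02 ± 0.28, from -0.36 on replicate 4 to 0.30 on replicate 1.

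The 3-O-sulfotransferases make rare sites, Hs3st1 those that bind antithrombin and Hs3st3a1 those that herpes simplex virus glycoprotein D uses. Hs3st1 (chr5:40005207-40005266) had log2 ratios of 0.59, 0.87, 0.44 and 0.95, a mean of 0.71 ± 0.24 (SD, n = 4 arrays) and 1.64-fold higher. Its levels were 10.20 to 10.44 in mutant and 9.27 to 9.85 in control RNAs, with no overlap. The ratio was larger on replicates 2 and 4, whose mutant RNA carried AlexaFluor555, and the fit has a term for the dye.

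Hs3st3a1 (chr11:64335924-64335983) went the other way, with -0.68, -0.57, -0.75 and -0.49, a mean of -0.62 ± 0.11 (SD, n = 4 arrays) and 1.54-fold lower. Its levels were 7.76 to 8.15 in mutant and 8.51 to 8.64 in control RNAs, again without overlap. Hs3st6 had -0.14 ± 0.15. The other 3-O-sulfotransferases, Hs3st2, Hs3st3b1, Hs3st4 and Hs3st5, were well above background on 0 of 4 arrays in both genotypes.

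The extracellular endosulfatases Sulf1 and Sulf2 had ratios of opposite sign. Sulf1 (chr1:12850302-12850361) had log2 ratios of -0.87, -0.91, -0.86 and -0.41, a mean of -0.76 ± 0.23 (SD, n = 4 arrays) and 1.70-fold lower. Its other probe had -0.94, -0.98, -0.97 and -0.58, so both probes were lower in the mutant on every array and least so on replicate 4. Mutant levels were 12.72, 12.74, 12.90 and 13.23, all below the control levels of 13.61 to 13.76, and without replicate 4 the mean was -0.89.

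Sulf2 (chr2:165899667-165899726) had 0.29, 0.24, 0.25 and 0.10, a mean of 0.22 ± 0.08 (SD, n = 4 arrays). Its levels were 13.38 to 13.49 in mutant and 13.13 to 13.35 in control RNAs, next to each other without overlap. The Sulf2 call was lost in 6 of 12 processing alternatives, among them without replicate 1, 2 or 3 (0.21, 0.19 and 0.23).

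**Figure D2:**
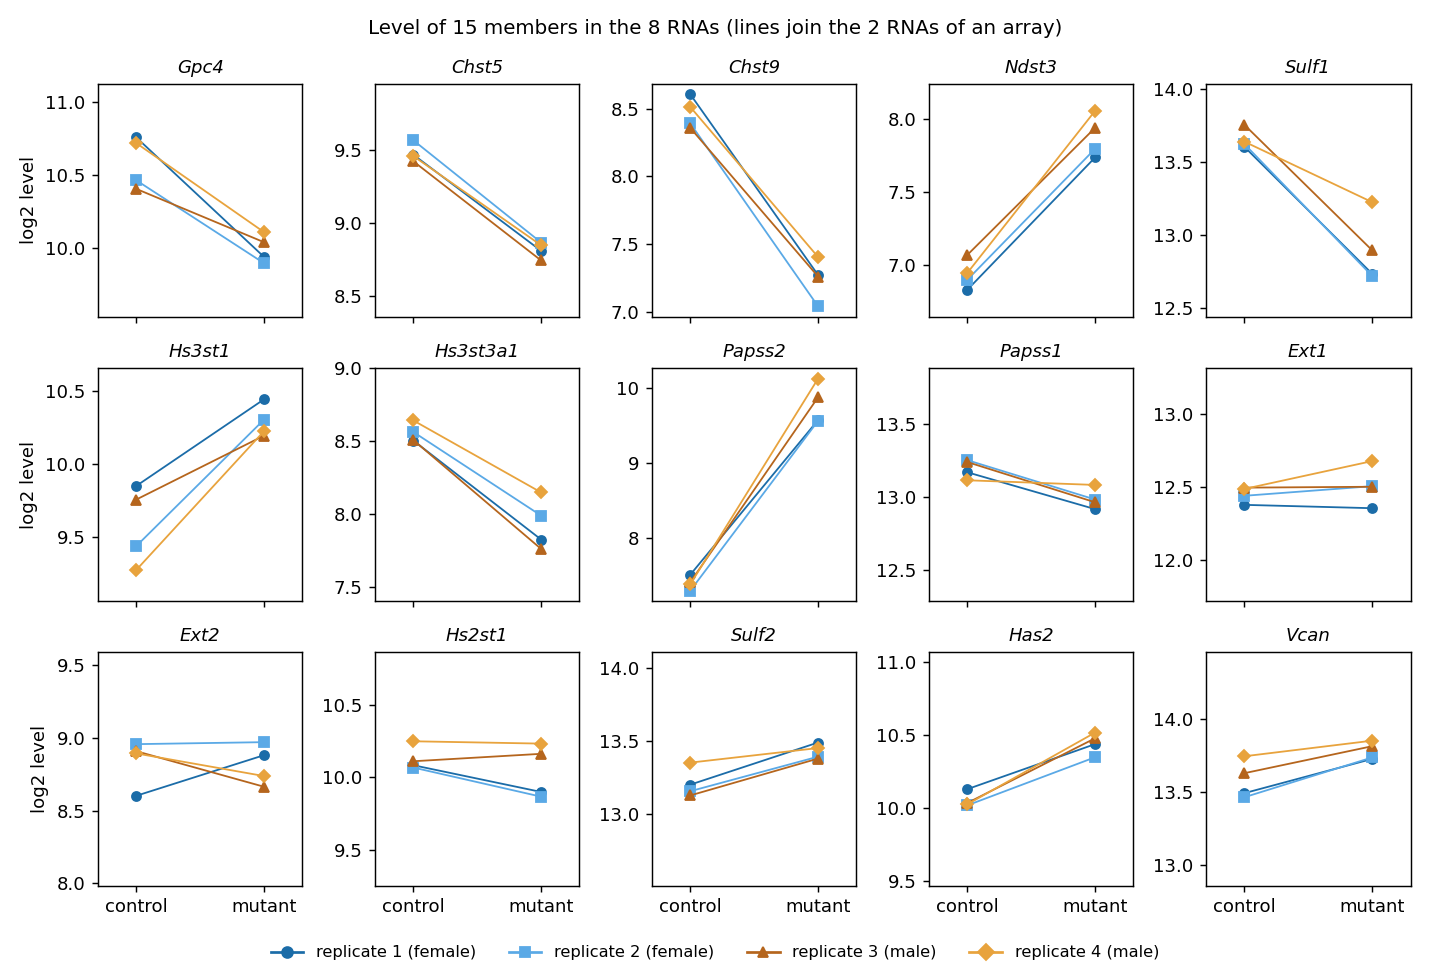
Normalized log2 level (vertical axis, its own range in each panel) of 15 genes in control and mutant RNA; each line joins both RNAs of 1 array and its marker gives the replicate. Papss2 goes from 7.29 to 7.51 in controls to 9.56 to 10.12 in mutants, Chst9 and Sulf1 slope down on every array, and the lines of Ext2 and Hs2st1 slope both ways.

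Most Chst enzymes sulfate chondroitin, dermatan or keratan sulfate or the sugars of glycoproteins. Of the 13 tested, Ust included, 2 were higher and 2 lower, beside 13.5% and 10.1% of all genes. Chst9, a GalNAc 4-O-sulfotransferase of glycoprotein sugars (chr18:15610690-15610749), had log2 ratios of -1.34, -1.35, -1.10 and -1.11, a mean of -1.23 ± 0.14 (SD, n = 4 arrays) and 2.34-fold lower. Its levels were 7.27, 7.04, 7.26 and 7.40 in mutant RNAs, with 3 of 4 above background, and 8.36 to 8.61 in controls. Mutant RNA lay near the floor, and the log2 ratio was -2.09 with the scanner software's values.

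Chst5 (chr8:114413064-114413123), an N-acetylglucosamine 6-O-sulfotransferase, had -0.66, -0.70, -0.68 and -0.61, a mean of -0.66 ± 0.04 (SD, n = 4 arrays) and 1.58-fold lower. Its levels were 8.74 to 8.86 in mutant and 9.42 to 9.57 in control RNAs, without overlap. Its SD over arrays was the smallest of the 8 genes past 1.5-fold. Chst7, a chondroitin 6-O-sulfotransferase on chromosome X, was higher at 0.26 ± 0.08, a call lost without replicate 1 or 3. Chst15, which adds a second sulfate to chondroitin 4-sulfate, was higher at 0.20 ± 0.06 with the brightest probe, while its other probe had 0.07 ± 0.11. The Chst15 call was lost without any 1 of the 4 replicates, with median centring and with the mean of the kept probes. It held in 6 of 12 alternatives, with a ratio of 0.133 to 0.221 over them. Chst7 ranged from 0.249 to 0.276 over the alternatives.

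The remaining 9 of these sulfotransferases did not pass the threshold. Chst11, Chst12 and Chst3, the main chondroitin 4-O- and 6-O-sulfotransferases, had -0.12 ± 0.13, -0.01 ± 0.18 and -0.14 ± 0.08 (SD, n = 4 arrays). Chst14 and Ust, which act on dermatan sulfate, had 0.06 ± 0.03 and 0.13 ± 0.18. Chst1 and Chst2, which sulfate keratan sulfate and glycoprotein sugars, had 0.23 ± 0.16 and 0.04 ± 0.28, Chst2 from 0.35 on replicate 1 to -0.32 on replicate 4 and 0.19 with its other probe. Chst8 and Chst10, of glycoprotein hormones and of the HNK-1 sugar, had 0.19 ± 0.13 and 0.06 ± 0.17.

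Has2, the main hyaluronan synthase of the embryo (chr15:56497356-56497415), had log2 ratios of 0.31, 0.33, 0.44 and 0.49, a mean of 0.39 ± 0.09 (SD, n = 4 arrays) and 1.31-fold higher. Its levels were 10.35 to 10.52 in mutant and 10.02 to 10.13 in control RNAs and did not overlap. Periotic mesenchyme markers, with a median of 0.38, were higher on the same arrays, and their part in the Has2 ratio was not tested.

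Among the cores, 1 glypican and 2 lecticans passed the threshold. Glypicans are held at the cell surface by a lipid anchor and modulate Wnt, hedgehog, Fgf and Bmp signals. Gpc4 (chrX:49406560-49406619) had log2 ratios of -0.82, -0.57, -0.37 and -0.61, a mean of -0.59 ± 0.19 (SD, n = 4 arrays) and 1.51-fold lower. Its levels were 9.90 to 10.11 in mutant and 10.41 to 10.76 in control RNAs, without overlap. Its other probe, at chrX:49406100-49406159, had -0.08, -0.14, -0.21 and -0.42, a mean of -0.21 ± 0.15 and short of the threshold. The probes thus share the sign on every array and not the size. The other probe was dimmer, with mean levels of 7.59 in mutant and 7.80 in control RNAs. In 4 of 12 alternatives Gpc4 fell short of 1.5-fold, at -0.40 with the mean of its probes, -0.48 without replicate 1, and -0.58 with median centring and without replicate 4.

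Gpc3, its neighbour on the chromosome (chrX:49625740-49625799), had 0.05 ± 0.11 (SD, n = 4 arrays). Gpc1 had -0.06 ± 0.14 and Gpc6 -0.02 ± 0.09. Gpc2, a glypican of the developing nervous system, had 0.31, 0.28, 0.28 and -0.30, a mean of 0.14 ± 0.29, with replicate 4 alone below 0.

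The syndecans, which span the membrane, were all 4 measured and 0 passed the threshold. Sdc1, the epithelial form, had 0.06 ± 0.05, Sdc2 -0.03 ± 0.17, Sdc3, the neural form, 0.07 ± 0.13, and Sdc4 -0.02 ± 0.22 (SD, n = 4 arrays). Otic epithelium markers had a median of -0.51 on the same arrays, and their part in the syndecan ratios was not tested.

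Lecticans are large chondroitin sulfate proteoglycans that bind hyaluronan. Vcan (chr13:89795080-89795139) had log2 ratios of 0.23, 0.27, 0.19 and 0.11, a mean of 0.20 ± 0.07 (SD, n = 4 arrays), with levels of 13.73 to 13.85 in mutant and 13.46 to 13.74 in control RNAs that overlapped slightly. A second Vcan probe, at chr13:89851810-89851869, had 0.13, -0.17, -0.10 and 0.03, a mean of -0.03 ± 0.13. This second probe was much dimmer, with mean levels of 8.11 in mutant and 8.14 in control RNAs. The third, at chr13:89850072-89850131, was well above background on 0 of 4 arrays in both genotypes. The first probe is annotated to a different Vcan transcript than the other probes. The Vcan call held in 5 of 12 processing alternatives. It was lost with the mean of the kept probes (0.08) and without replicate 1, 2 or 3 (0.19, 0.16 and 0.21). It was also lost with median centring, the scanner software's ratios and the deposited series table. Ncan, the lectican of neural tissue, was higher at 0.17 ± 0.06, a dim probe at levels of 7.34 to 7.42 in mutant and 7.14 to 7.31 in control RNAs. The Ncan call was lost without any 1 of the 4 replicates, with median centring and with no filter on dim probes. It held in 6 of 12 alternatives, with a ratio of 0.156 to 0.308 over them.

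**Figure D3:**
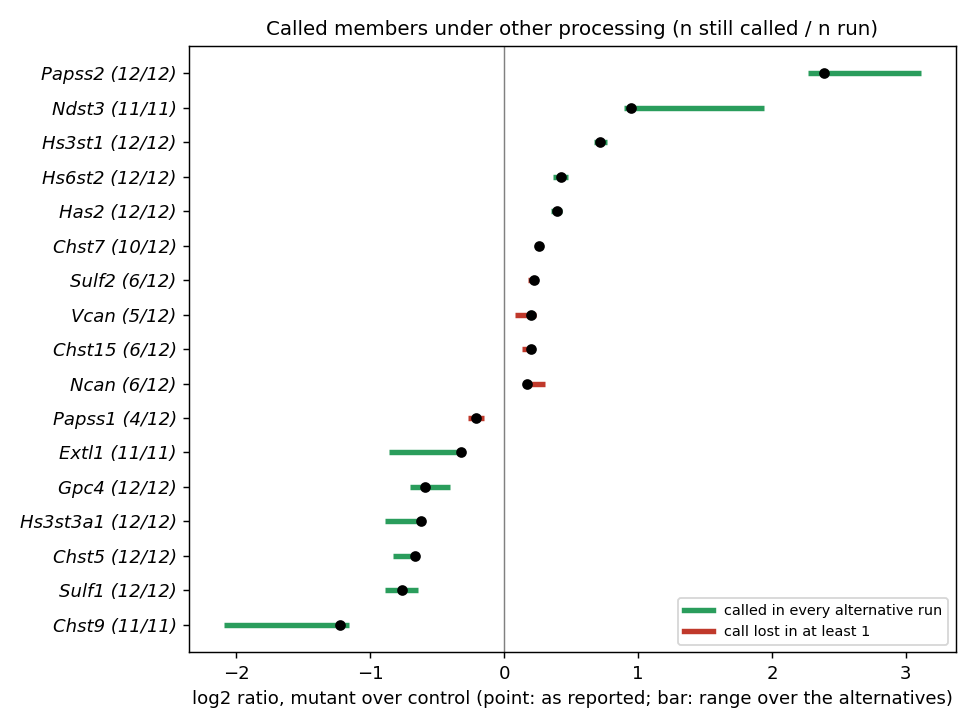
Log2 ratio (horizontal axis) of the 17 genes past the threshold: points are the values reported, bars the range over the processing alternatives, and the numbers after each name say in how many alternatives of those run the call held. The call held in every alternative run for 11 genes, among them the 8 that were past 1.5-fold as reported. It was lost at least once for Papss1, Sulf2, Vcan, Ncan, Chst7 and Chst15. Chst9, Ndst3 and Extl1 had 11 alternatives and not 12, as they were not tested with every channel required above background. Ndst3 and Extl1 passed the filter through 1 genotype only, so nothing is read from their calls holding.

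Neighbouring steps of the pathway were read from lists that were not part of the name rule. Over all genes 13.5% were higher and 10.1% lower, and the counts of each list stand beside these shares as a description, with no direction of a list read from them. Of 17 genes of linker and chain synthesis 13 were tested, with 2 higher, 1 lower and a median log2 ratio of -0.02. Dsel, a dermatan sulfate epimerase, had 0.40 ± 0.06 (SD, n = 4 arrays), Chsy1, a chondroitin synthase, 0.22 ± 0.10, and B3galt6, a galactosyltransferase of the linker, -0.20 ± 0.06. Xylt1, Chsy3 and the hyaluronan synthases Has1 and Has3 were not well above background.

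The list of precursor supply and transport had 9 of 9 tested, 1 higher and 2 lower, beside 13.5% and 10.1% of all genes, with a median of -0.05. Both lower genes import or exchange sulfate: Slc26a2, the sulfate transporter of cartilage, at -0.32 ± 0.13, and Slc26a1 at -0.32 ± 0.18 (SD, n = 4 arrays). Slc35d1, which carries nucleotide sugars into the endoplasmic reticulum, was higher at 0.27 ± 0.13.

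Of 14 breakdown enzymes, all tested, 3 were higher and 0 lower, beside 13.5% and 10.1% of all genes, with a median of 0.06. Among the higher ones, Hyal1, a hyaluronidase, had 0.20 ± 0.14, and Hexa, which encodes a lysosomal enzyme subunit, 0.19 ± 0.04 (SD, n = 4 arrays).

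Other cores and binding proteins had 18 of 25 tested, 8 higher and 1 lower, beside 13.5% and 10.1% of all genes, with a median of 0.19. Srgn, the core of granules in blood and endothelial cells, had 1.03 ± 0.22, Spock2, a testican, 0.61 ± 0.05, Bgn, a small matrix proteoglycan, 0.47 ± 0.22, and Tgfbr3, a Tgf-beta co-receptor, 0.47 ± 0.12 (SD, n = 4 arrays). The lower gene was Epyc, a small proteoglycan of cartilage and inner ear, at -0.34 ± 0.11. Ogn, among the 8, was tested only through the mutant RNAs, so the filter favoured a higher ratio and nothing is read from its direction. Erythroid, endothelial and mesenchyme markers, with medians of 1.12, 0.66 and 0.38, were higher on the same arrays, and their part in these values was not tested.

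The sexes were no part of the choice of the genes, so the difference of the genotype effect between male and female pairs was tested as an interaction in a limma fit over 18415 genes. It has 1 residual degree of freedom, and 2 genes (0.0109%) passed an adjusted p of 0.05, 0 of the 43 among them. At an unadjusted p under 0.05 there were 8 of the 43, or 18.6%, against 15.5% of all genes. Papss2 had the smallest p of the 43: its mean log2 ratio was 2.17 in the female and 2.61 in the male pairs, a difference of 0.44 (SE 0.09, unadjusted p = 0.00161, limma adjusted p = 0.137). Both arrays labelled male lay above both labelled female, and the difference did not pass the correction. The sexes are those of the labels. Given the Xist signal in the replicate 4 mutant RNA and the Eif2s3y signal, without Ddx3y, in replicate 2, these values compare RNAs by label. The part of those signals in these values was not tested.

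Chst2 followed with 0.23 in female and -0.14 in male pairs (limma adjusted p = 0.159). Sdc2, Glce and Ust were below 0 on both female and above 0 on both male arrays, Ext2 the reverse, with limma adjusted p-values of 0.214, 0.210, 0.218 and 0.218. Hs6st1 and Chst9 had adjusted p-values of 0.248 and 0.272. With 2 pairs a sex no difference between sexes was detectable for these genes, which does not show that the sexes were alike.

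**Figure D4:**
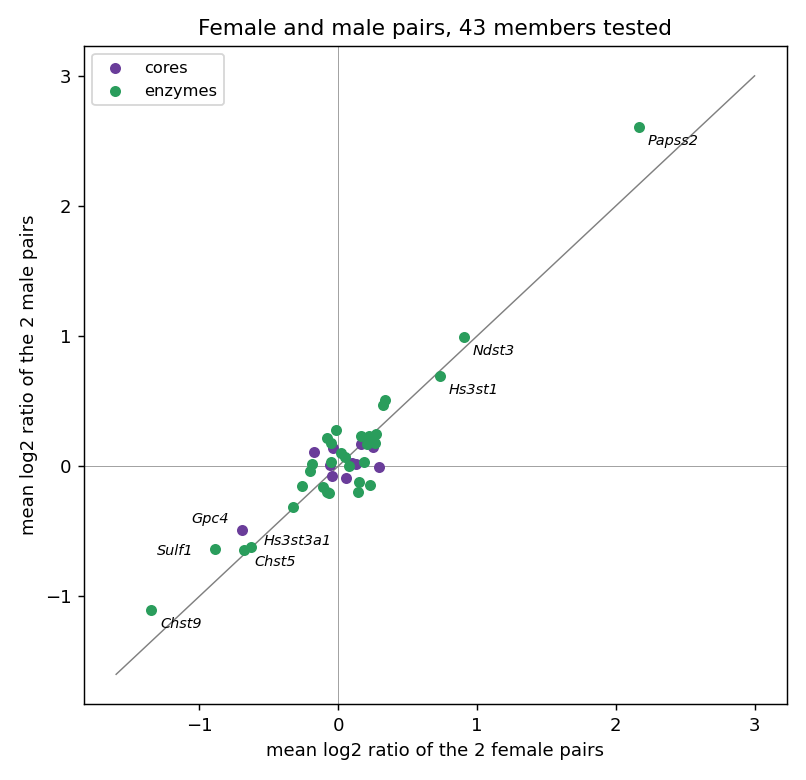
Mean log2 ratio of the female pairs (horizontal axis) against the male pairs (vertical axis) for the 43 genes tested; the diagonal marks equal values, and genes past 1.5-fold are named. Papss2 lies above the diagonal at 2.17 and 2.61, and Chst9 at -1.35 and -1.11.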

How the data were processed

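Total RNA of 4 mutant and 4 control otocyst samples was hybridised in pairs to 4 Agilent arrays, with the dyes swapped within each sex. Spot and local background intensities, and log10 ratios of red over green, were deposited by the authors as scanner output. The submitters' processing notes name Agilent Feature Extraction, version 10.7.3.1. The flags used as a score for spots above background or non-uniform were set by it, per the file headers. The deposited series table holds signed fold ratios, within 0.001 of the turned scanner values for 90.8% to 93.3% of probes, with a median of 1 in each column. No source used here tells how the others were altered.

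Intensities were corrected with normexp (offset 50) and normalized by loess in R 4.3.3 with limma 3.58.1, statmod 1.5.0 and version 1.17.8 of the data.table package, with control spots at weight 0 and 21 to 32 non-uniform spots per array left out; 0 spots were saturated. Of 39429 probes 23187 were kept, and the brightest kept probe stood for each of 18416 genes. Ratios were fitted with lmFit and eBayes (residual degrees of freedom 2, prior 4.6) on genotype, coded by dye, and a dye term. Levels are log2 channel values after loess and Aquantile normalization. Names came from RefSeq (GRCm38.p6) by accession for 26412 probes, by symbol for 3854, by synonym for 735, and from the file for 8428; 0 genes of the group were renamed. The steps were tested on simulated data. Plots used Python 3.11.15 and matplotlib 3.10.9.

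The genes and lists were chosen with earlier results of these data known. Array-by-array values are given for genes past the threshold, of 1 sign and at least 1.5-fold, and, whatever their values, for Papss1, Papss2, Ext1, Ext2, Hs2st1, Sulf1, Sulf2, Has2 and Vcan; Gpc2 was given so after its values were seen. Of each pathway list, up to 4 genes past the threshold with the largest ratios are given with values, of which 1 is not reported here; some genes below background, Epyc, the lower gene of its list, and Ogn are named besides. Alternatives covered background correction, normalization, the scanner software's ratios, the deposited series table, the filter, the dye term, the probe rule and leaving out each array. The scanner software's ratios and the series table hold largely the same values but are counted as separate alternatives.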

Additional observations from a re-analysis of the deposited data

Results flagged for a closer look

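For 4 of the 43 genes, or 9.30%, 1 array stood apart from the other 3 by more than Dixon's critical value, and in each it was replicate 4. Chance flags about 1 in 20 groups, and 5.16% of 18408 genes tested this way were flagged, with replicate 4 the array that stood apart for 2.60% of all genes and each of the others for 0.532% to 1.09%. The log2 ratio of Gpc2 was -0.295 on replicate 4 against 0.28 to 0.31 on the others, that of Ndst3 1.11 against 0.87 to 0.91, that of Sulf1 -0.415 against -0.91 to -0.86, and that of Papss1 -0.032 against -0.28 to -0.25. Gpc2 differed in sign between replicate 4 and the other arrays.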

How the results depend on the processing

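The 17 calls rest on 4 arrays. The alternatives gave 178 values for 15 genes, those given array by array except Gpc2. Of these values, 155 kept their direction and side of the threshold, 21 kept the direction but lost the call, and 2 reversed. Both reversals were for Ext2, at 0.10 without replicate 3 and 0.02 without replicate 4 (-0.16 to 0.10 over the left-out arrays). The count of enzymes stayed within 1.5 times of 14. The cores past the threshold, 3, were 1 with median centring and 1 to 3 when each array was left out. The 4350 genes past the threshold became 2813 without replicate 1 and 2583 without replicate 3, a range of 2583 to 4280. Genes with a sex difference went from 2 to 0 with the scanner software's ratios, where the smallest adjusted p among the group was 0.183. All left-out fits had fewer arrays, and without replicate 2 or 4 the count of genes past the threshold was 4280 or 4026. The cause of these moves was not tested.

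Depth limits the dim genes: with every channel required above background, Chst9, Ndst3 and Extl1 were no longer tested, and over the alternatives run Chst9 ranged from -2.09 to -1.16, Ndst3 from 0.894 to 1.94 and Extl1 from -0.859 to -0.306. Each array holds the mutant and control RNA of 1 replicate number, so the reported fit on within-array ratios is already the paired one.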
